A study of Mus musculus with 4 samples.

Results

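Gene expression was compared between 2 blood progenitor populations sorted from Trib1-/- mice, MDP and granulocyte monocyte progenitors (GMP), with 1 Affymetrix array each, out of 4 arrays in the study. The labels describe the MDP array as macrophage dendritic cell. All 4 arrays carried RNA of unstimulated, untreated cells from mice of a mixed C57BL6J/129SV background, and the other two held wild-type GMP and wild-type MDP. The ages of the mice, how many were pooled, the sort gates and the Trib1 allele were not given in the sources used here. Where a gene had several probe sets, the one with the highest average of the 4 values stood for it. A gene was kept if at least 1 array read 3.29 or more, the median of the whole table, called the floor below. This left 11653 of 18193 named genes. Values are log2 RMA values (background-corrected and normalised probe brightness), and a difference is Trib1-/- MDP minus Trib1-/- GMP on that scale. A difference of at least 1 in size (2-fold) was counted as apart. With 1 array per group nothing could be tested, and no value has a replicate error.

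GMP are bone marrow progenitors that give rise to granulocytes and monocytes, and they already transcribe the genes of the primary granules, the lysosome-like stores of serine proteases and myeloperoxidase that neutrophils carry. MDP, the usual abbreviation of monocyte (or macrophage) and dendritic cell progenitor, lie on the way to monocytes, macrophages and dendritic cells and depend on the receptors for M-CSF and FLT3 ligand. Trib1 encodes a pseudokinase through which the ubiquitin ligase COP1 reaches C/EBP alpha, a transcription factor of the granulocyte path. The comparison thus asks how far the 2 progenitors are apart when Trib1 is deleted.

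Trib1 itself did not check the labels. Its stronger probe set read 5.10 in Trib1-/- GMP and 5.56 in Trib1-/- MDP, and the same probe set read 4.95 and 5.99 in wild type. Its other probe set went the opposite way between the Trib1-/- arrays, with 5.19 in GMP and 4.71 in MDP, and read 4.85 and 5.13 in wild type. No source used here gives the deleted part or the probe positions, and knockout below means an array labelled Trib1-/-. The gene nearest above the floor was Bmper (highest value 3.287) and the nearest below it was Car15 (3.286). The SD between probe sets of 1 gene was 0.423 for the knockout difference, over 4922 genes, and it leaves out animals, sorts and hybridisations. Spiked hybridisation controls of the BioB and BioC series read 0.15 higher (median of 10 probe sets) on the knockout MDP array. The signal at the 3′ end minus that at the 5′ end of Actb, a measure of how complete the RNA copies are, was 1.91 in knockout GMP and 1.67 in knockout MDP, and for Gapdh 1.20 and 1.66. In bulk samples, fewer cells of a type and less RNA per cell cannot be told apart.

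Between the knockout arrays, 12 of 14 primary granule genes were lower and 12 of 25 monocyte and macrophage genes higher in MDP by 2-fold or more. Of the 11653 genes, 475 (4.08%) were at least 2-fold lower and 320 (2.75%) at least 2-fold higher in MDP, together 795 (6.82%). At 4-fold the counts were 56 lower and 44 higher, and at 8-fold 14 and 6. Both knockout arrays were above the floor for 294 of the genes lower and 214 of those higher. With values under the floor raised to it, 359 and 247 were still 2-fold apart. The size rule was a cut through a continuous range. H2-DMa (1.0001) and Foxred1 (-1.0002) lay just inside it, and Map7d1 (0.9999) and Smim4 (-0.9998) just outside.

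**Figure D1:**
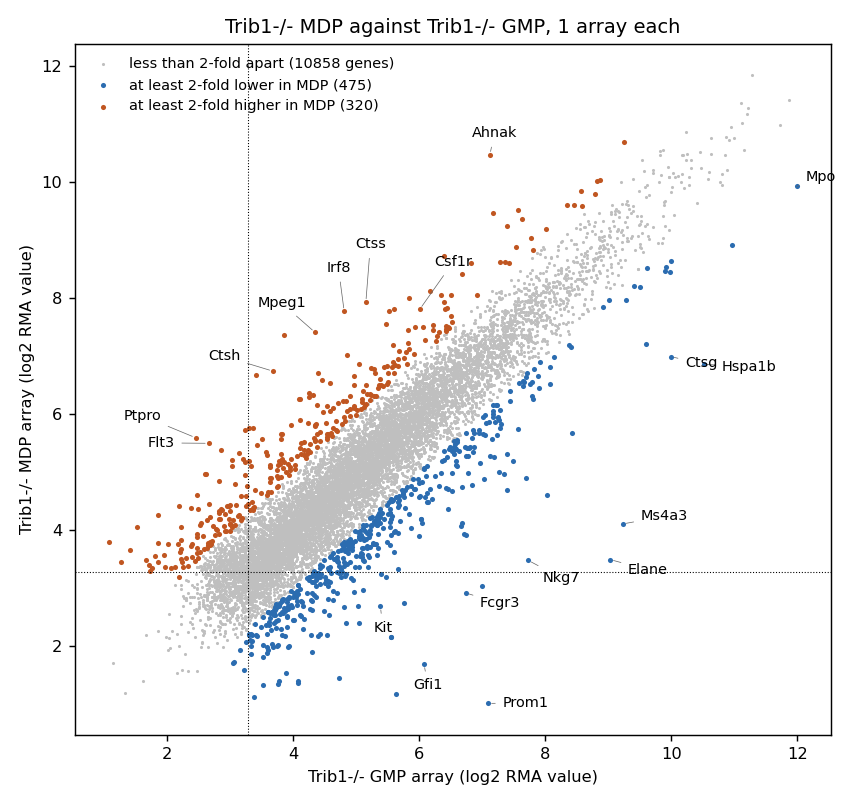
Each point is 1 of 11653 genes, with its log2 RMA value on the Trib1-/- GMP array (x axis) and on the Trib1-/- MDP array (y axis), 1 array each. The 475 genes at least 2-fold lower in MDP are blue, the 320 at least 2-fold higher are orange, and dotted lines mark the floor of 3.29. Elane, Ms4a3, Gfi1 and Prom1 are among the genes far below the diagonal, and Mpeg1, Ctsh, Irf8 and Ahnak are among those above it.

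Prom1 had the largest difference of the values as deposited. It encodes prominin-1 (CD133), a membrane glycoprotein of stem and progenitor cells, and read 7.09 in knockout GMP and 1.02 in knockout MDP, against 6.95 and 2.19 in wild type. Both GMP arrays were thus high and both MDP arrays below the floor. The knockout difference was -6.07 (67.4-fold lower in MDP), or -3.81 with the MDP value raised to the floor, which is less than that of Elane (-5.53), Ms4a3 (-5.12) and Nkg7 (-4.24). Kit, the stem cell factor receptor, read 5.39 in knockout GMP and 2.69 in knockout MDP, and 6.01 and 2.43 in wild type. KIT is among the surface proteins often used to define MDP, and on both MDP arrays its probe set was below the floor. Cx3cr1, the fractalkine receptor gene often used in the same way, read 5.06 in knockout GMP and 5.36 in knockout MDP, 0.30 apart. Flt3 (2.84), Irf8 (2.96) and Csf1r (1.80), genes on which MDP depend, were higher in knockout MDP and are described below. These genes thus did not all go the way of the label, the sort gates are unknown, and the populations are called by their labels.

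Of the 20 stem and early progenitor genes above the floor, Prom1 and Kit were the 2 at least 2-fold apart, and the median difference of the list was -0.07, beside -0.01 over all genes. Cd34 differed by -0.69, Lmo2 by -0.77 and Myb by -0.72, all lower in MDP. Sox4, a transcription factor of early progenitors, differed by 0.86, and Procr, the endothelial protein C receptor, by 0.77. Mecom (-0.12) and Hlf (0.27), regulators of stem cells, had nearly equal values on both arrays. Meis1, another, differed by 0.14 on 1 probe set and by -0.9993 on the other. Prom1 and Kit therefore did not stand for the list as a whole.

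The primary granule and early granulocyte genes were the list farthest toward GMP. All 14 members above the floor read lower in knockout MDP, 12 of them at least 2-fold, with a median of -2.58. Both knockout arrays were above the floor for 11 of the 14, and Mgst2 was below it on both. Elane read 9.03 in knockout GMP and 3.50 in knockout MDP, a 46.2-fold difference, and 9.57 and 4.24 in wild type. Ms4a3, a membrane protein gene of early granulocyte progenitors, read 9.23 and 4.11 in the knockout and 9.73 and 3.59 in wild type, and was 34.7-fold lower in knockout MDP. On both genes the 2 GMP arrays lay above 9 and the 2 MDP arrays below 4.5. Prtn3, the proteinase 3 gene, lies beside Elane on chromosome 10 with 3137 bases between them in the RefSeq table (GRCm38.p6). It read 7.35 in knockout GMP and 4.97 in knockout MDP, 5.21-fold apart. Ctsg, the cathepsin G gene, read 9.99 and 6.997, and differed by -2.99.

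The 250 bases before the annotated start of 3 of these protease genes are shown because the genes differed in the same direction and by at least 5-fold, and 2 of them are neighbours. The sequences are from RefSeq, 5′ to 3′ on the strand of the gene, and capitals mark GAGGAA, the core of the usual PU.1 binding motif. They lie at chr10:79886062-79886311 (Elane, plus strand), chr10:79879417-79879666 (Prtn3, plus strand) and chr14:56102575-56102824 (Ctsg, minus strand).
Elane: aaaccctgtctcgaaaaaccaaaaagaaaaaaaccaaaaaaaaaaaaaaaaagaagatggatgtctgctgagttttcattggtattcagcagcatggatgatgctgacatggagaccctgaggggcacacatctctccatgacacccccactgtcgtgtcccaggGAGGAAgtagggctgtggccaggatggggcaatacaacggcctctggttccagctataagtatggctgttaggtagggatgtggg
Prtn3: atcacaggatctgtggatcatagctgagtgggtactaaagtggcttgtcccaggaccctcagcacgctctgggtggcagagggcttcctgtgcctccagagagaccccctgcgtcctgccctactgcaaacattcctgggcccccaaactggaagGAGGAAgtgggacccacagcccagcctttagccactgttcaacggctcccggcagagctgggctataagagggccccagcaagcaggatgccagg
Ctsg: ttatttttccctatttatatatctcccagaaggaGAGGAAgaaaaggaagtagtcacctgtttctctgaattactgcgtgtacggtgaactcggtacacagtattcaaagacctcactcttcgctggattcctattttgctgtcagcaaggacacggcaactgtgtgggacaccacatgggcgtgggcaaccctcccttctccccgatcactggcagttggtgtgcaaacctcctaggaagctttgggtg
The match starts 85 bases before the start of Elane, 95 before that of Prtn3 and 216 before that of Ctsg. A match is a description of letters and not evidence of binding, and this motif was present in 22.7% of all promoters of the genes used.

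Mpo, which encodes myeloperoxidase, read 11.99 in knockout GMP and 9.93 in knockout MDP. Its difference of -2.06 was smaller than that of Elane, and its MDP value was far above the floor. Srgn encodes serglycin, which packs granule proteases, and read 10.96 and 8.93 (-2.03). Nkg7, a granule membrane protein gene, read 7.73 and 3.48 (-4.24). Serpinb1a, an inhibitor of the granule proteases, differed by -2.82 and the glutathione transferase gene Gstm1 by -2.79. Cst7 (-1.84) and Hp, the haptoglobin gene (-1.54), completed the members beyond 2-fold, after which came Mgst2 (-0.75) and Fcnb (-0.70).

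Fewer of the late neutrophil genes were detected. Of 18 late neutrophil genes, 8 were above the floor and 7 of those read lower in MDP, 4 at least 2-fold (median -0.69, or -0.18 with values under the floor raised). Lcn2, Mmp8, Mmp9 and Cd177, which define mature neutrophils, were below the floor on all 4 arrays, and Camp (4.29 and 4.35) and Ltf (3.62 and 3.55) were close to it. The 4 lower genes were Anxa1 (7.19 and 5.26), S100a9 (5.23 and 4.08), Pglyrp1 (-1.93, or -0.65 raised) and S100a8 (-1.497, or -0.24 raised). Anxa1 had a second, weaker probe set that read 0.58 higher in MDP. The summed linear level of the list was 271 in GMP and 121 in MDP, and 125 and 83.0 without Anxa1.

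Genes of basophils and mast cells were also lower in knockout MDP. All 9 members above the floor read lower and 6 at least 2-fold, with a median of -1.66, or -1.26 raised. Both knockout arrays were above the floor for 4 of the 9. Gzmb (1.62 and 1.41) was below it on both, was kept through the wild-type GMP array, and was 0.0 apart once raised. Srgn belongs to this list as well as to the granule list. Hdc, the histidine decarboxylase gene that makes histamine, read 5.75 in knockout GMP and 2.74 in knockout MDP, and 6.91 and 2.86 in wild type. Its difference of -3.01 was -2.47 once raised, and its other probe set gave -1.27. Ms4a2, the beta chain of the high-affinity IgE receptor, read 4.57 and 2.55, and Fcer1a, its alpha chain, 3.38 and 1.13, so that its difference of -2.24 was -0.09 once raised. Slc18a2, a vesicular monoamine transporter, differed by -1.26. The summed linear level of the list was 2219.7 in GMP and 559.6 in MDP, most of it Srgn, and without Srgn 226 and 72.4. The mast cell protease genes Cma1, Tpsb2, Tpsab1 and Mcpt4 were below the floor on all 4 arrays.

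Only 4 eosinophil genes were above the floor, too few for a median. Prg2, which encodes the eosinophil granule major basic protein, read 5.55 in knockout GMP and 2.16 in knockout MDP, and 6.72 and 2.58 in wild type. Epx, the eosinophil peroxidase gene, read 5.10 and 3.54 in the knockout. Both were thus at least 2-fold lower in MDP, by -3.39 and -1.56. Siglecf differed by -0.66, with both knockout values below the floor, and Il5ra by 0.13. The summed level was 108 in GMP and 41.5 in MDP. Whether cells of these lineages in the sorts had a part in the granule differences was not tested.

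**Figure D2:**
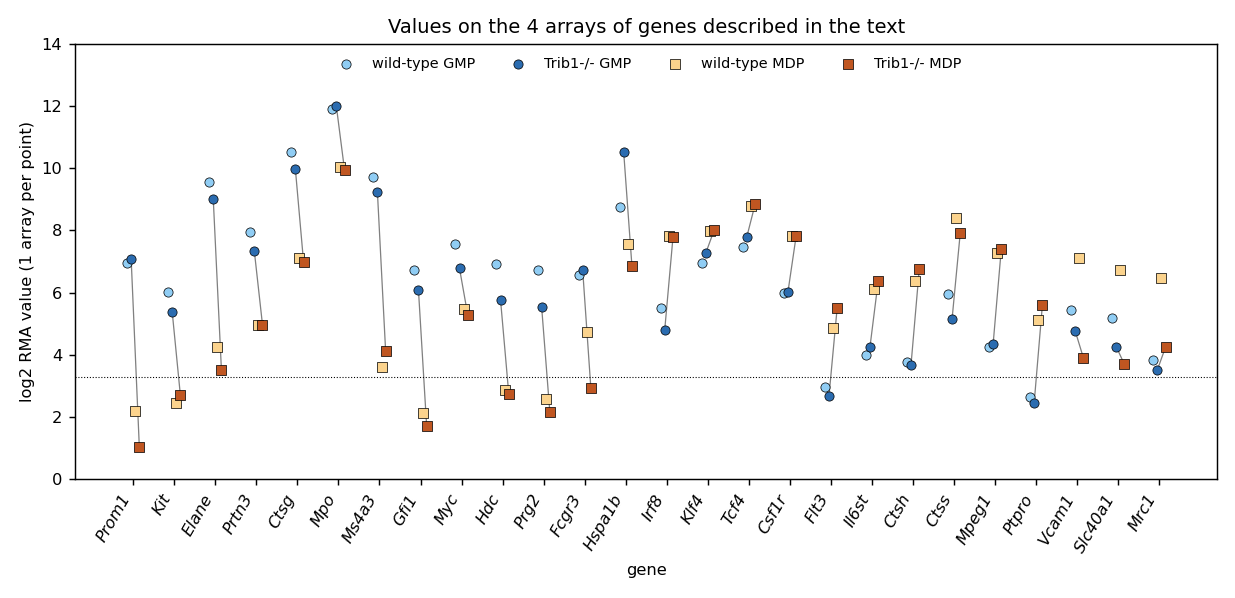
The 4 values of each gene described in the text are plotted on the log2 RMA scale (y axis), 1 array per point, with circles for GMP, squares for MDP, light colours for wild type and dark for Trib1-/-. A grey line joins the 2 knockout arrays and the dotted line is the floor of 3.29. From Prom1 to Hspa1b the MDP squares lie below the GMP circles, from Irf8 to Ptpro they lie above, and for Vcam1, Slc40a1 and Mrc1 the wild-type MDP array stands above the others.

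On the other side, monocyte and macrophage genes were the list farthest toward MDP. Of 25 members above the floor, 12 were at least 2-fold higher and 1 lower, with a median of 0.87 (0.52 raised). Mpeg1, the perforin-2 gene of phagocytes, read 4.35 in knockout GMP and 7.42 in knockout MDP, an 8.38-fold difference, and 4.26 and 7.28 in wild type. Ctss, the cathepsin S gene whose protease trims the invariant chain of MHC class II, read 5.15 and 7.93 in the knockout and 5.95 and 8.40 in wild type, so the 2 MDP arrays lay above both GMP arrays. Psap, the precursor of the saposins of lysosomes, read 5.59 and 7.81, and its 2 probe sets gave 2.22 and 2.94. Ms4a6c (2.16, with a second probe set at 0.30), the transglutaminase gene F13a1 (1.75), Pld4 (1.73), Ly86 (1.45), Ms4a6b (1.41), Ifi30 (1.352) and Ccr2 (1.32) were also higher. S100a4 had a difference of 2.71 but a GMP value of 1.09, and raised to the floor it differed by 0.52.

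Other defining monocyte genes were close to equal. Lyz2, the lysozyme gene of myeloid cells, read 5.41 in knockout GMP and 5.60 in knockout MDP, and Vcan, the versican gene, 6.87 and 6.75. Emb differed by -0.11, Cybb by 0.17 and Adgre1, which encodes F4/80, by 0.13. The single member lower in MDP was Fcgr3, which encodes the low-affinity IgG receptor CD16. It read 6.74 in knockout GMP and 2.92 in knockout MDP, 14.1-fold lower, and 6.58 and 4.74 in wild type. The knockout MDP array was the only one below the floor on that gene. Fcgr2b, the neighbouring inhibitory receptor, was chosen after its values were seen, and read 6.52 and 4.67.

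The promoter of Ctss is shown to set a gene higher in MDP beside the 3 granule protease genes. It lies at chr3:95526536-95526785 (plus strand, GRCm38.p6, from RefSeq), with GAGGAA again in capitals.
Ctss: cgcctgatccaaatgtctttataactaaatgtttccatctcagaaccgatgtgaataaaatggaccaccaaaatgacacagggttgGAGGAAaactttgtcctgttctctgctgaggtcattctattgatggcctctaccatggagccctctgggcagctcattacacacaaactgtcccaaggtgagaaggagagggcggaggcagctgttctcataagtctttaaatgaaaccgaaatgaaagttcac
The match starts 164 bases before the start of Ctss. In the same window Mpeg1, also higher in MDP, held 0 matches. The motif was present in 4 of the 12 matched promoters of the granule list and in 6 of the 21 of the monocyte list.

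Over the whole comparison the motif was not confined to 1 direction. Promoters of 250 bases were matched for 9402 of the 11653 genes, and both strands were searched. GAGGAA was present in 21.7% of the promoters of genes at least 2-fold lower in MDP (83 of 383), in 24.2% of those of genes higher (64 of 265) and in 22.7% of all. TTGCNNAA, a loose form of the C/EBP motif, was present in 10.2% of the promoters of genes lower, 5.28% of those of genes higher and 7.38% of all. For TGTGGT, the RUNX motif, the shares were 11.7%, 9.43% and 10.9%, and for AAATCA, a GFI1 core, 6.53%, 8.68% and 8.17%. The IRF motif was present in 2.61%, 3.77% and 2.67%. The motifs are short and carry no test. CpG dinucleotides were few in the promoters of the granule list (median 3.5) and of the monocyte list (median 3), beside 15 over all genes.

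Ctsh and Ptpro were high in MDP although neither is in the monocyte list. Ctsh, the cathepsin H gene, read 3.68 in knockout GMP and 6.75 in knockout MDP, and 3.76 and 6.36 in wild type, with probe sets from 3.02 to 3.06. Ptpro, a receptor-type tyrosine phosphatase gene, read 2.45 and 5.60 in the knockout and 2.66 and 5.12 in wild type. Its difference was 3.14, or 2.31 raised. On both genes the 2 MDP arrays lay above the 2 GMP arrays, which for Ptpro were below the floor.

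Among 17 dendritic cell genes above the floor, 4 were at least 2-fold higher and 0 lower, beside 2.75% and 4.08% of all genes. The median was 0.59 (0.42 raised). Tcf4, which encodes the E2-2 factor of plasmacytoid dendritic cells, alone among the 4 was above the floor on both arrays, at 7.80 in knockout GMP and 8.84 in knockout MDP. Its 5 probe sets ranged from 0.98 to 1.40. Spib, an ETS factor, read 2.99 and 4.42, the lectin gene Clec10a 2.52 and 4.10, and Itgax, which encodes CD11c, 1.81 and 3.57. Those 3 were below the floor in GMP, and Itgax differed by 0.28 once raised. Batf3 (-0.01), Irf4 (0.24) and Zbtb46 (0.67), factors of conventional dendritic cells, and Siglech (0.23) were less than 2-fold apart. Xcr1, Cd209a and Ccr7, genes of mature dendritic cells, were below the floor on all 4 arrays. Genes of MHC class II were weak, with Cd74 at 3.71 and 3.66 and H2-Ab1 and H2-Eb1 below the floor, and 1 of 6 members, H2-DMa, reached 2-fold.

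Transcription factors of the myeloid paths were split in direction. Of 34 above the floor, 4 were higher and 5 lower in knockout MDP by 2-fold or more, with a median of 0.05. Over all genes the shares were 2.75% higher and 4.08% lower. Irf8, the factor on which monocyte and dendritic cell progenitors depend, read 4.81 in knockout GMP and 7.77 in knockout MDP, and 5.51 and 7.81 in wild type. Its difference was 2.96 (7.80-fold), and its other probe set gave 2.60. Gfi1, a repressor needed for neutrophils, ran the other way, with 6.08 and 1.70 in the knockout and 6.73 and 2.14 in wild type. It differed by -4.38, or -2.79 with the MDP value raised to the floor. The 2 factors thus differed in opposite directions between the same arrays, in the knockout as in wild type.

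The other factors lower in MDP were Gata2, of basophils and early progenitors (6.198 and 4.54), Myc (6.78 and 5.29), Cebpd (-1.31, or -0.47 raised) and Tfec (-1.02). Cebpa, the C/EBP alpha gene, came just short, with 7.90 in knockout GMP and 6.91 in knockout MDP (-0.99). Bcl11a, a zinc finger factor of dendritic and B cells, read 6.45 and 7.83, and its 4 probe sets ranged from 0.42 to 1.38. Nr4a1, of Ly6C-low monocytes, read 2.22 and 3.83, so that its difference of 1.61 was 0.54 raised. Klf4, a monocyte factor, differed by 0.73, Cebpb by -0.26 and Zeb2 by 0.20. Spi1, which encodes PU.1 itself, read 4.34 and 3.87, lower in MDP by less than 2-fold.

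Growth factor and cytokine receptors went both ways. Of 25 above the floor, 5 were at least 2-fold higher and 3 lower, with a median of 0.19. Over all genes the shares were 2.75% higher and 4.08% lower. Flt3, the FLT3 ligand receptor, read 2.66 in knockout GMP and 5.50 in knockout MDP, and 2.95 and 4.85 in wild type, with both GMP arrays below the floor. Csf1r, the M-CSF receptor, read 6.01 and 7.81 in the knockout and 5.997 and 7.82 in wild type, 3.49-fold apart. Its 3 probe sets gave values from 0.996 to 1.80. Il6st, which encodes the signalling chain gp130, read 4.26 and 6.37, Csf2rb2 2.83 and 4.85, and Il10ra 3.33 and 5.11. Csf3r, the G-CSF receptor of granulocytes, was lower in MDP, at 4.55 and 2.82, and so was Kit. Tgfbr2 differed by -1.10 but by -0.02 once raised. Csf2ra (0.06), the alpha chain of the GM-CSF receptor, and Ifnar1 (0.02) had the same level on both arrays.

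Most genes of adhesion and of chemokine, lectin and Toll-like receptors were less than 2-fold apart. Even so, by the values as deposited, the share apart in each list was above the 6.82% of all genes. These lists are short, and the excess was not tested. Among 20 integrin and adhesion genes, 5 were at least 2-fold higher and 0 lower, with a median of 0.50 (0.31 raised). Itga9 read 2.86 in knockout GMP and 5.39 in knockout MDP, but its weaker probe set gave 0.36. Itgb7 read 3.56 and 5.35, Selplg, the P-selectin ligand, 3.76 and 5.13, and Cd44, the hyaluronan receptor, 7.43 and 8.61, with probe sets from 0.15 to 1.19. Itga4 differed by -0.72. Of 8 chemokine receptor genes 1 was beyond 2-fold, Ccr2, the receptor by which monocytes leave the marrow, at 6.22 and 7.54. Of 11 C-type lectin and Siglec genes, Clec10a and Clec7a (1.46) were higher and Clec4e (-1.24) was lower, but once raised they differed by 0.82, 0.65 and -0.14. Of 10 Toll-like receptor genes and adaptors, Ly86 was higher and Irak3 (-1.27, or -0.59 raised), an inhibitor of this signalling, lower. Tlr7 and Myd88 were among 12 others of that list below the floor on all 4 arrays.

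Lysosomal genes did not shift as a list. Of 21 members, 4 were at least 2-fold higher (Ctsh, Ctss, Psap and Ctse) and 2 lower, Man2b1 (-1.20) and Glb1 (-1.02). The median was -0.05, and of all genes 2.75% were at least 2-fold higher and 4.08% lower. Ctsb read 6.73 in knockout GMP and 6.69 in knockout MDP, Ctsc 5.98 and 5.92, and Lamp1 7.13 and 7.52. The cathepsin genes H and S thus stood apart from those of B, C, D (-0.56) and Z (-0.19).

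Genes of secretion, ribosomes and energy metabolism read lower in MDP over almost the whole of each list, mostly by less than 2-fold. Over all genes, 5981 of 11653 lay below 0 and 4.08% were at least 2-fold lower. The endoplasmic reticulum (ER) list went farthest. Of 24 members, 22 read lower, 11 of them at least 2-fold, and the median was -0.93. Hspa5, the ER chaperone BiP, read 9.91 in knockout GMP and 8.54 in knockout MDP, and P4hb, a protein disulfide isomerase, 9.99 and 8.65. Sdf2l1 (-2.12, or -1.52 raised), Pdia4 (-1.55, or -1.47 raised) and Creld2 (-1.41), partners of BiP and folding enzymes, differed more. Xbp1, the factor that switches on the secretory programme, read 5.41 and 4.46. Herpud1 (0.50) and Ddit3 (0.11) were the 2 members that read higher in MDP.

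Among cytosolic ribosomal protein genes 17 of 18 lay below 0 (median -0.71), and 2 were beyond 2-fold, Rps3 (9.504 and 8.202) and Rps14 (7.88 and 6.67). Of the ribosome biogenesis and MYC target genes 25 of 27 lay below 0 (median -0.57), 5 of them beyond 2-fold. Those were Srm (-1.44), Gnl3 (-1.15), Polr1a (-1.06, with another probe set at 0.06), Ppat (-1.06) and Ncl, the nucleolin gene (9.01 and 7.96). Myc, as given above, was lower by -1.49. For the respiratory chain and ATP synthase 23 of 24 genes lay below 0 (median -0.48), 4 of them beyond 2-fold. Ndufb5, of complex I, read 6.68 and 4.75, and Cyc1, of complex III, 5.001 and 3.56. Ndufs7 (-1.23) had another probe set at 0.12. In glycolysis all 14 members above the floor read lower, with a median of -0.73, and 2 were beyond 2-fold, Tpi1 (6.03 and 4.19) and Aldoa (7.20 and 5.87). Because RMA sets the arrays to a common distribution, these are levels relative to the other genes of an array.

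**Figure D3:**
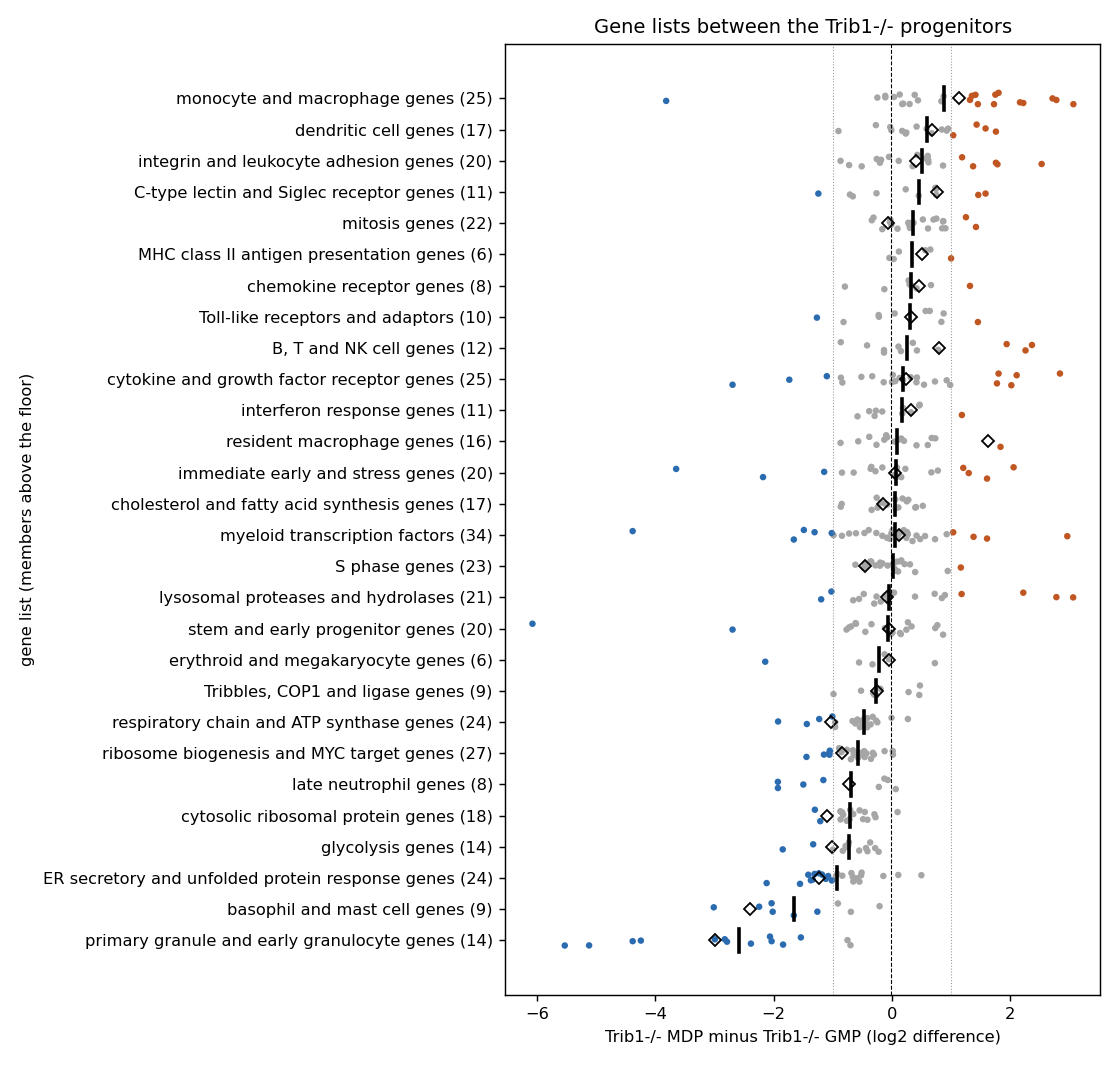
Each dot is a member gene of a list (named on the y axis, members above the floor in brackets), placed by its log2 difference, Trib1-/- MDP minus Trib1-/- GMP (x axis), with blue and orange for members at least 2-fold lower or higher. Black bars are list medians, open diamonds the medians of the same lists in wild type, and dotted lines the 2-fold rule. The granule list (-2.58) and the monocyte list (0.87) are at the ends of the order, and the wild-type diamond of the resident macrophage list (1.62) lies far from its knockout bar (0.08).

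Genes of the cell cycle differed little. Of 23 S phase genes 1 was at least 2-fold higher, E2f2 (1.16), with a median of 0.01. The replicative helicase genes Mcm2 (-0.07), Mcm4 (0.21) and Mcm5 (0.04) read nearly the same on both arrays. Of 22 mitosis genes 2 were at least 2-fold higher, the kinetochore gene Cenpf (3.77 and 5.19) and the kinesin gene Kif23 (5.56 and 6.81). In this list 16 lay above 0, with a median of 0.35, and over all genes 5643 of 11653 lay above 0 and 2.75% were at least 2-fold higher. Mki67, the proliferation marker Ki-67, read 8.10 and 8.71.

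Among the stress genes Hspa1b, an inducible HSP70 gene, had the largest difference. It read 10.51 in knockout GMP and 6.87 in knockout MDP, and 8.76 and 7.55 in wild type. The knockout GMP array was the highest and the knockout MDP array the lowest of the 4. The difference was -3.65 (12.5-fold), and its 3 probe sets ranged from -3.91 to -3.65. Hspa1a, its near-identical copy, read 3.52 and 1.34 (-0.23 once raised), and hybridisation may not tell the 2 genes apart. Dnajb1, an HSP40 gene of the same response, differed by -0.35, with another probe set at -1.58. Early response genes to stimulation or handling were mixed, with Zfp36 (4.25 and 6.30), Nr4a1, Fosb (1.30) and Fos (8.82 and 10.03) higher in MDP, Ier3 (-1.15) lower, and Jun (-0.36), Egr1 (-0.16) and Dusp1 (0.09) less than 2-fold apart. The whole list had a median of 0.07.

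The remaining lists held few genes apart. Of 11 interferon response genes 1 was at least 2-fold higher, Trim30a (8.01 and 9.19), with a median of 0.17, and of 17 genes of cholesterol and fatty acid synthesis 0 were 2-fold apart (median 0.06). None of the 9 Tribbles, COP1 and ligase genes was 2-fold apart, Cop1 reading 7.76 and 8.04.

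Markers of other lineages were checked for the sorts. Of 19 erythroid and megakaryocyte genes, 6 were above the floor, and Gata1, Klf1, Hba-a1, Alas2 and Pf4 were below it on all 4 arrays. Car2, a carbonic anhydrase gene, read 5.39 in knockout GMP and 3.25 in knockout MDP, and 5 of the 6 read lower in MDP (median -0.23). The list summed to 432 and 586, but to 123 and 74.8 without Tfrc, the transferrin receptor gene of dividing cells. Over all genes 2.75% were at least 2-fold higher. Of 25 B, T and NK cell genes, 12 were above the floor and 3 at least 2-fold higher in MDP. These were Dntt, the terminal transferase of lymphoid progenitors (2.61 and 4.98), Il7r, the interleukin-7 receptor (1.41 and 3.67, 0.38 apart once raised), and Klrd1 (1.85 and 3.79, 0.50 once raised). Pax5, Rag1, Cd3d and Ncr1 were below the floor on all 4 arrays. Ebf1, the strongest member, had linear levels of 126 in knockout GMP and 115 in knockout MDP. The list summed to 281 and 337, and to 155 and 222 without Ebf1. The part of these other lineages in the differences above was not tested.

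Resident macrophage genes were at about the same level on the 2 knockout arrays. Of 16 above the floor 1 was at least 2-fold apart, with a median of 0.08 (0.0 raised). Their summed level was 178 in knockout GMP and 193 in knockout MDP. Both knockout arrays were above the floor for 7 of the 16 and below it for 6. In wild type 11 of the 16 were at least 2-fold higher in MDP, with a median of 1.62 and sums of 211 and 609. Those 6 genes were kept through a wild-type array, so the wild-type count can follow in part from the rule for keeping genes. Vcam1, an adhesion molecule of iron-recycling macrophages, read 4.77 in knockout GMP and 3.90 in knockout MDP, but 5.43 and 7.11 in wild type. Slc40a1, the iron exporter ferroportin, read 4.26 and 3.69 in the knockout and 5.20 and 6.72 in wild type, and Mrc1, the mannose receptor, 3.51 and 4.24 against 3.82 and 6.46. On these 3 genes the wild-type MDP array was the highest and the others were closer together. C1qb read 2.02 and 1.94 in the knockout, below the floor, and 4.27 on the wild-type MDP array. Cd163, the haemoglobin scavenger receptor, was the 1 member beyond 2-fold, with a knockout difference of 1.84 that was 0.21 once raised. C1qa, C1qc and Cd5l were below the floor on all 4 arrays.

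Beside the wild-type pair, which shares no array with the knockout pair, the 2 knockout arrays were closer to each other. Over the 11653 genes the correlation of the array values was 0.929 between knockout GMP and MDP and 0.875 between wild-type GMP and MDP, a description over genes, which are not replicates. The differences had an SD of 0.570 in the knockout and 0.757 in wild type, where 1445 genes (12.4%) were at least 2-fold lower and 485 (4.16%) at least 2-fold higher in MDP. Genes lower made up 59.7% of those apart in the knockout and 74.9% in wild type. The BioB and BioC hybridisation controls differed by 0.15 in the knockout pair and 0.63 in the wild-type pair, and their part in the wider spread was not tested.

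The 2 sets of differences correlated over genes with a Pearson r of 0.597 and a Spearman rho of 0.519. Lower in both genotypes were 332 genes, which is 69.9% of the genes lower in the knockout and 23.0% of those lower in wild type. Higher in both were 115, or 35.9% and 23.7%. Of the genes lower in knockout MDP, 442 of 475 had the same sign in wild type, and of those higher 284 of 320. Genes lower in knockout MDP had a median of -1.27 there and -1.39 in wild type, while those higher had 1.29 and 0.75. The first of each of these pairs was chosen by its size in the knockout, so it is no measure of a stronger difference there.

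Several of the genes described above had about the same difference in both genotypes. Elane differed by -5.53 in the knockout and -5.33 in wild type, Gfi1 by -4.38 and -4.60, Csf1r by 1.80 and 1.82, Il6st by 2.11 and 2.11, Ahnak by 3.35 and 3.35, and Mpeg1 by 3.07 and 3.02. The granule list had a median of -2.58 in the knockout and -2.99 in wild type, and the monocyte list 0.87 and 1.14. The ER list had -0.93 and -1.24, with 22 of 24 members smaller in size in the knockout. Respiratory chain genes had -0.48 and -1.03, also smaller for 22 of 24, and over all genes 7634 of 11653 were smaller. Whether the genotypes differ in any of these could not be tested.

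**Figure D4:**
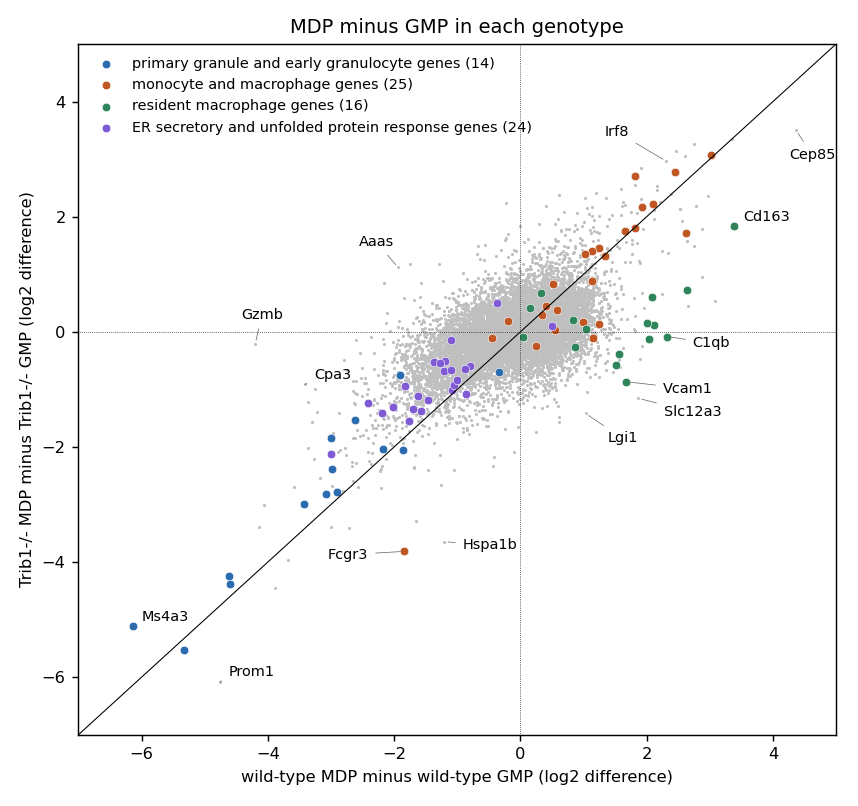
Each grey point is 1 of 11653 genes, with the wild-type difference, MDP minus GMP, on the x axis and the Trib1-/- difference on the y axis (both log2, 1 array per group), and 4 lists are coloured. The solid line marks equal differences. Granule genes lie below 0 on both axes and most monocyte genes above 0 on both. Resident macrophage genes such as C1qb and Vcam1 lie near or below 0 on the y axis and well above 0 on the x axis. The monocyte genes Vcan and Adgre1 also lie near 0 on the y axis and well above 0 on the x axis, and Fcgr3 lies below the line.

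Some of the 8 genes each way whose differences parted most between genotypes are described here, a number set by the rule for naming. Many of them had values below the floor, but Hspa1b, Mfhas1, Slc12a3, Vcam1 and Lgi1 did not. Gzmb, the granzyme B gene, read 4.99 on the wild-type GMP array and between 0.79 and 1.62 on the other 3, so its difference was -0.21 in the knockout and -4.20 in wild type. Cpa3, the mast cell carboxypeptidase, read 3.56 in knockout GMP and 2.65 in knockout MDP but 5.93 and 2.51 in wild type. For both genes only the wild-type GMP value was far above the floor. For Hspa1b the knockout difference minus the wild-type difference was -2.44. Mfhas1 read 6.23 in knockout GMP and 6.68 in knockout MDP, and 4.47 and 7.12 in wild type. Cd52, a small membrane glycoprotein of leukocytes, read 2.19 and 4.42 in the knockout and 3.80 and 3.57 in wild type. Cyp3a13 (-0.48 in the knockout, 1.89 in wild type) and Cdk3 (-0.61 and 1.58) stood on the other side from Gdpd3 (0.84 and -2.16) and Adal (0.85 and -1.57). A second, weaker probe set of Adal gave 0.89 and 0.90, and so did not part.

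Some of the largest differences lay outside the lists. Sgms2, a sphingomyelin synthase gene, read 5.63 in knockout GMP and 1.18 in knockout MDP, B4galt6, a lactosylceramide synthase gene, 8.02 and 4.61, and Far2, a fatty acyl-CoA reductase gene, 5.56 and 2.16. In wild type their differences were -3.89, -2.72 and -3.00. B4galt6 had 4 probe sets from -3.41 to -2.17, and Mgam, the maltase-glucoamylase gene, read 7.002 and 3.04. Among those higher, Ahnak, a giant scaffold protein gene, read 7.12 and 10.47, with a second, weak probe set at 0.25. Pdzd4 read 3.41 and 6.68. Cep85, a centrosomal protein gene, read 3.86 and 7.37, but its other probe set differed by 0.02. Lifr, the LIF receptor that pairs with gp130, read 1.52 and 4.07, and its difference of 2.55 was 0.78 once raised.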

How the data were processed

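RNA was isolated with Trizol, then amplified and labelled with biotin with the NuGEN Ovation system, per the labels' protocols. The deposited log2 values were made by the authors with RMA, per the submitters' processing notes. The log2 scale is inferred from the range of 0.14 to 14.5, and no source used here gives the RMA version or array batches. Array medians were 3.27, 3.29, 3.31 and 3.27 (wild-type GMP, knockout GMP, wild-type MDP, knockout MDP). The number of arrays limits the precision.

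Of 45101 probe sets, 64 were controls, 34945 carried a unique gene symbol, 932 carried several and 9160 were unlisted. Identifiers of 34741 were found in the RefSeq table (GRCm38.p6). The members and the 29 gene lists were chosen with earlier results of these data known. A list needed 5 members above the floor for a median, and 28 had them. Named were the 6 marker genes, the 12 largest in each direction whose probe sets go 1 way, up to 5 members of each list, regulators and receptors beyond 2-fold, the 8 genes each way that parted most between genotypes, and Trib1. Other names were added after their values were seen. The tolerances of the closing section were also set then. As alternatives, the floor was dropped or set at the 75th percentile, and the others were values raised to the floor, the mean of probe sets, leaving out probe sets with cross-hybridisation suffixes, cyclic loess (limma 3.58.1, 3 iterations), centring, 32 added before log2, and 1.5-fold and 4-fold rules. Python 3.11.15, pandas 2.3.3 and numpy 2.4.6 were used. The counting was tested on simulated data with a spread taken from the knockout difference, which gives no measure of error between arrays, sorts or animals.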

Additional observations from a re-analysis of the deposited data

Results flagged for a closer look

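In 6 genes the difference between MDP and GMP was at least 2-fold in both genotypes and opposite in direction, on 1 array per group, so the difference between genotypes was not tested. Lower in knockout MDP and higher in wild-type MDP were Lgi1 (-1.42 in the knockout, 1.03 in wild type), Slc12a3 (-1.15 and 1.87) and Ptchd3 (-1.05 and 1.05). Higher in knockout MDP and lower in wild-type MDP were Aaas (1.12 and -1.94), Ctse (1.18 and -1.29) and Atpsckmt (1.19 and -1.75). Slc12a3 read 3.32 in wild-type GMP, 5.27 in knockout GMP, 5.19 in wild-type MDP and 4.11 in knockout MDP. Aaas, a nuclear pore protein gene, read 5.04, 2.99, 3.11 and 4.11 in the same order. Ctse, the cathepsin E gene, read 6.80, 3.25, 5.51 and 4.43, and its other probe set differed by 0.28 in the knockout. Once raised to the floor, Ptchd3 differed by -0.40 and 0.23, Aaas by 0.83 and -1.76, and Atpsckmt by 0.80 and -1.04, while the other 3 were still beyond 2-fold in both genotypes.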

How the results depend on the processing

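No paired analysis was possible because each group has 1 array and the labels give no replicate numbers, and for the same reason no array could be left out. Adding 32 before log2 left 61 genes higher, 65 lower, 60 lower in both genotypes and 23 higher in both, a correlation of 0.699, and medians of -1.78 (granule), -0.16 (neutrophil), -0.44 (basophil) and 0.33 (monocyte). The mean of probe sets gave 200 higher, 301 lower, 221 lower in both and 76 higher in both. At 1.5-fold these counts were 1184, 1480, 1027 and 500, and at 4-fold 44, 56, 42 and 18. A floor at the 75th percentile gave a correlation of 0.713 and a monocyte median of 1.34. Without a floor the medians were -0.22 (neutrophil), -0.80 (basophil) and -0.0595 (C-type lectins). The neutrophil median was -0.18 with raised values and -0.22 without suffixed probe sets, where Ndufs7 turned to 0.12. Of 98 named genes beyond 2-fold, 79 remained so with raised values, 39 with 32 added and 98 under cyclic loess. The causes were not tested. Genes near the floor are the least certain.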

Other observations

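Several genes that no list covered were still at least 2-fold apart with 32 added to the linear values, a setting under which weak genes drop out, and they are described here as chosen after their values were seen. Dpysl2, which encodes a microtubule-binding protein, read 7.16 in knockout GMP and 9.47 in knockout MDP, and 7.29 and 9.19 in wild type. Vim, the vimentin gene, read 9.25 and 10.70 in the knockout and 9.34 and 10.72 in wild type, so both MDP arrays lay above both GMP arrays. Further genes higher in knockout MDP were the actin-binding protein genes Cnn3 (2.33) and Tpm4 (2.26), Anxa2 (2.18), Ptger4, a prostaglandin E2 receptor gene (1.95), and Dpp4, which encodes the peptidase CD26 (1.75). Sema4d (1.72) encodes a semaphorin and Plxnc1 (2.32) a semaphorin receptor of the plexin family.

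Lower in knockout MDP under the same setting were Fut8, a fucosyltransferase gene (7.49 and 5.19), and Csgalnact2, of chondroitin sulfate synthesis (7.39 and 5.31). Ak4, a mitochondrial adenylate kinase gene, read 8.42 and 5.68, and Dio2, which encodes a deiodinase that activates thyroid hormone, 7.39 and 4.70. Igf1r, the insulin-like growth factor 1 receptor, differed by -1.80. Gsr, the glutathione reductase gene, differed by -1.43, Txn1, the thioredoxin gene, by -1.26, and Tkt, the transketolase gene, by -1.31. In wild type all 8 were lower in MDP as well, with differences from -2.93 to -1.21.

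Probe sets without a usable gene name also differed. Of 5089 above the floor that the annotation did not list, 188 (3.69%) were higher and 102 (2.0%) lower in knockout MDP by 2-fold or more, so more were higher, whereas among named genes more were lower. Of 600 above the floor with several symbols, 22 were higher and 17 lower. All these probe sets were counted singly, but each named gene once by its strongest probe set, so the counts are in unlike units.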
